A study of Mus musculus with 4 samples.

Results

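The beta chain of the T cell receptor is assembled in the thymus from 1 V, 1 D and 1 J gene segment, and the V segment that a cell has joined is usually fixed for that cell and all its descendants. The leading Trbv transcript of a cell therefore reads both the starting repertoire and the expansion of single clones, which build up when a T cell divides on meeting antigen. In the intestine, T cells meet food and bacterial antigens, and regulatory, interleukin-17-producing and cytotoxic CD4 T cells live side by side in the lamina propria. Described here are the 35 Trbv genes, all genes whose symbol starts with Trbv, among the 31053 genes of 4 count matrices of CD4 T cells from mouse small intestine.

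The 4 libraries formed 1 group: wildtype C57Bl/6 mice, untreated as far as the labels say, with no age given and no deletion, transgene or Cre. CD45+ CD3+ CD4+ 7AAD-negative (living) cells were sorted from lamina propria after removal of Peyer's patches and profiled with the 10x 5′ kit, which reads transcripts from the end that holds the V segment. The design text counts 4 mice, but the labels do not tie each library to 1 mouse, so p-values measure the spread between libraries. All comparisons are between classes of cells within the same libraries.

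Each cell was put in the first class it met: Foxp3 (at least 1 UMI, unique molecular identifier, of Foxp3, the regulatory T cell factor), Il17a (at least 1 UMI of this cytokine), Cd8a (at least 1 UMI of the CD8 alpha chain), Ifng (at least 1 UMI of interferon gamma), Gzma (at least 10 UMIs of granzyme A) and the rest. The gates overlap: over all libraries, 78.6% of the Cd8a class, 37.5% of the Il17a class, 36.2% of the Foxp3 class and 20.9% of the Ifng class met 2 or more. The classes are therefore not separate cell types. A cell's leading Trbv gene was the one with most UMIs. Of 21501 cells, 20494 held a Trbv UMI, 607 of these had a tie for first place, and 19887 had a leading gene, with a median of 6 UMIs of it. The leading cells numbered 1415 in the Foxp3 class, 553 in the Il17a class, 546 in the Cd8a class, 5934 in the Ifng class, 1448 in the Gzma class and 9991 in the rest. Shares are percentages of these cells within 1 library and class.

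The libraries held 23918884 to 28783972 UMIs, with a median of 3630 to 4173.5 UMIs per analysed cell. Any pair of libraries shared 29 to 44 cell barcodes, at most 0.835% of the smaller one. No library stood apart in depth. The class labels were checked against genes the gates did not use, in CPM (a gene's UMIs scaled to the same total in each library and class, mean of 4 libraries). Ikzf2 (Helios, a regulatory T cell factor) was at 814 in the Foxp3 class and 154 in the rest. Il22 was at 976 in the Il17a class and 70.4 in the rest, and Gzmb at 3086 in the Gzma class and 256 in the rest. Gzmb did not set the Gzma class apart from the Cd8a class (3090), and stood at 1528 in the Foxp3 class and 1210 in the Ifng class. From the same list, Nkg7, Ccl5 and Itgae were also higher in the Gzma class than in the rest, and Cd8b1 was lower (3.43 against 4.79). The gate gene Gzma itself was at 10400 in the Cd8a class, above its 7997 in the Gzma class. In the Ifng class Il12rb2 (an interleukin-12 receptor chain) was at 399 against 127 in the rest, and Tbx21 at 104 against 74.7. Cxcr3, listed for the same class, did not set it apart, at 243 against 245. Cd4 lay between 320 and 402 in every class, the Cd8a class included, and Trdc, the delta chain constant gene, averaged at most 5.61. Marker lists of other cell types were summed in the same unit. Plasma cell genes (6 of 6 detected) averaged 642 in the Foxp3 class, 666 in the Ifng class and 666 in the rest, and 83.2 to 115 in the other 3 classes. The other lists that stood apart are given beside the Foxp3, Il17a and Cd8a results. Their part in the comparisons was not tested.

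A V segment ends with the codon of the second conserved cysteine and a few bases that open the third complementarity-determining loop, which contacts peptide. The last 45 coding bases of 10 members that carry the differences described here are shown from the GENCODE annotation of GRCm38 (mm10), 5′ to 3′, with the cysteine codon and all bases after it in capitals.
Trbv1: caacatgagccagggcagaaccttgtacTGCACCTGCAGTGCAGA
Trbv3: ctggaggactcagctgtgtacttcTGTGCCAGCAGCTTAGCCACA
Trbv5: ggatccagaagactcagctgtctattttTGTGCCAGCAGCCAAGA
Trbv12-1: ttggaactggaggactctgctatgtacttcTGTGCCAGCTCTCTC
Trbv12-2: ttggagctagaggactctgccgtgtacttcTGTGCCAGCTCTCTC
Trbv13-2: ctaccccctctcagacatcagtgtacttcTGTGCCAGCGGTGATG
Trbv13-3: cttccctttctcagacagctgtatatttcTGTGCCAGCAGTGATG
Trbv16: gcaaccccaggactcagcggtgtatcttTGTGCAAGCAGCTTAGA
Trbv19: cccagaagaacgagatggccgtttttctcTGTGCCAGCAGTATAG
Trbv31: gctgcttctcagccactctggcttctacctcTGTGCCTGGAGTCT
These end at chr6:40891841-40891885 for Trbv1, chr6:41119320-41119364 for Trbv12-2, chr6:41121788-41121832 for Trbv13-2 and chr6:41179004-41179048 for Trbv19, all on the plus strand. Trbv31 lies at chr6:41557693-41557737 on the minus strand, the one member in that orientation. Trbv12-1 and Trbv12-2 share every base from the cysteine codon on. Of the 22 members with a coding sequence, 13 open this stretch with the same 9 bases.

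The 35 members span positions 40891229 to 41558452 of chromosome 6, and the annotation classes 22 as V genes and 13 as pseudogenes. No UMI was counted for 9 members, and 12 led no cell. The 23 that led at least 1 cell were all 22 V genes and 1 pseudogene, Trbv24, which led 15 cells. Together the members had 191932 UMIs. UMIs per leading cell differed widely between genes (Trbv1 led 1714 cells and had 23418 UMIs, while Trbv2 led 1586 cells and had 6188), so levels are compared only within a gene.

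Nearly all cells of every class held a beta chain transcript. A Trbv UMI was held by 95.02% ± 1.36 (SD, n = 4 libraries) of the Foxp3 class, 96.2% ± 3.41 of the Il17a class, 94.8% ± 1.09 of the Cd8a class, 96.5% ± 0.820 of the Ifng class, 96.1% ± 1.08 of the Gzma class and 94.6% ± 0.775 of the rest. After thinning each cell to 2000 UMIs the means lay between 86.8% in the Foxp3 class and 90.9% in the Cd8a class. None of 32 cells taken as outside the T lineage held a Trbv UMI, but these were chosen for having no transcript of Trac, Trbc or CD3 genes, so they give no independent level of free Trbv RNA. Their median depth of 6346 UMIs, averaged over libraries, was above that of every class.

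In the rest class no single gene dominated. Trbv19 led 12.5%, 10.1%, 11.4% and 10.9% of cells in libraries 1 to 4, Trbv3 led 10.1%, 9.02%, 12.5% and 8.99%, and Trbv13-2 led 12.9%, 10.4%, 5.74% and 10.4%. Trbv31 averaged 9.56% ± 3.11, Trbv2 8.83% ± 2.52 and Trbv16 8.37% ± 4.26 (SD, n = 4). Neighbours in this order overlapped between libraries, and Trbv16 was high in library 2, at 14.4%, against 5.18% to 8.42% in the others. The first place fell to a different gene in each library: Trbv13-2, Trbv16, Trbv31 and Trbv1. It took the 5 most used genes to reach 50% of the cells in each library.

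**Figure D1:**
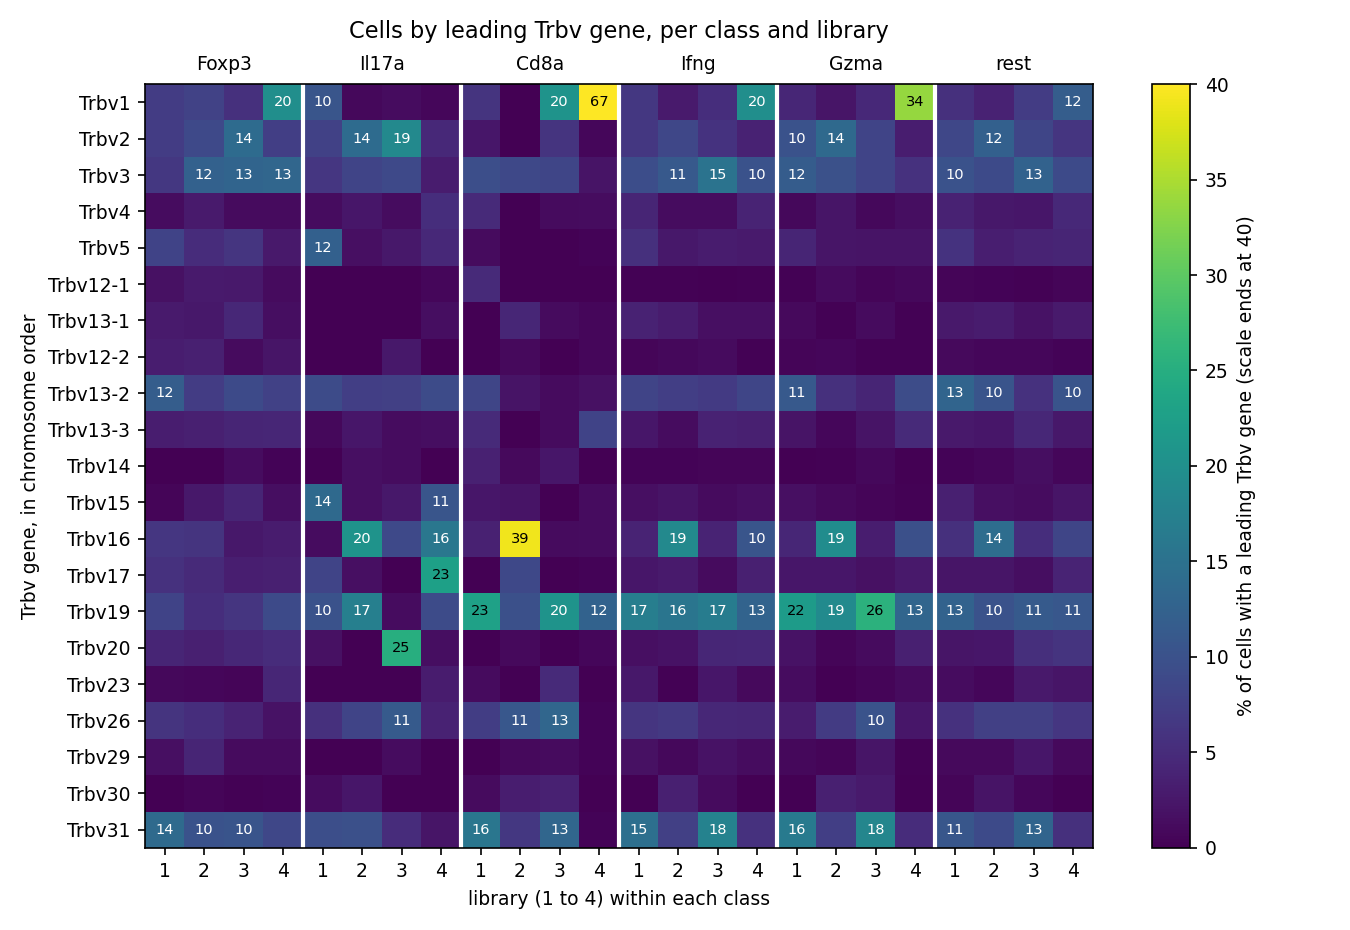
Share of cells (percent, colour scale ending at 40) led by each Trbv gene with a class mean of at least 1% (rows, in chromosome order), in 6 classes and libraries 1 to 4 within each class (columns); values of 10% and above are printed. The bright tiles are single libraries, such as Trbv1 in the Cd8a class of library 4 at 66.7%. Trbv19 is printed in all 4 libraries of the Ifng, Gzma and rest classes, with the rest lower than the other 2 in each library.

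The other classes leaned on fewer genes. The 3 most used genes covered 35.8% ± 1.85 (SD, n = 4) of cells in the rest and 36.1% ± 4.57 in the Foxp3 class, against 44.85% ± 3.73 in the Ifng class, 48.1% ± 8.07 in the Il17a class, 53.3% ± 2.82 in the Gzma class and 62.3% ± 17.2 in the Cd8a class. Which genes these were differed between libraries. In all 6 classes the first gene was held by 3 or 4 different genes over the 4 libraries.

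Pielou evenness, the Shannon entropy of the shares divided by its maximum over 35 genes, puts this in 1 number (1 when all genes are used alike). In the rest it was 0.763, 0.750, 0.768 and 0.769 in libraries 1 to 4. In the Foxp3 class it was 0.762, 0.795, 0.773 and 0.742, which overlaps the rest on both sides. The Ifng class had 0.746, 0.720, 0.724 and 0.725, and every value lay under those of the rest.
The Il17a class had 0.695, 0.651, 0.642 and 0.682, and the Gzma class 0.678, 0.674, 0.676 and 0.637, both well under the rest in every library. In the Cd8a class it was 0.686, 0.577, 0.630 and 0.371, the widest spread of all classes. Without library 4 of the Cd8a class the lowest value was still 0.577.

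Evenness differed from the rest by -0.0947 ± 0.0246 (SD of the 4 within-library differences) in the Il17a class, -0.197 ± 0.140 in the Cd8a class, -0.0337 ± 0.0131 in the Ifng class and -0.0963 ± 0.0247 in the Gzma class, lower in 4 of 4 libraries each. In each of these the exact 2-sided sign-flip test gave p = 0.156 after adjustment over 5 classes, from the smallest raw p that 4 libraries allow, so the design cannot reach 0.05. For the Foxp3 class the difference was 0.00537 ± 0.0300, lower in 2 of 4 libraries (exact p = 0.75). Classes of fewer cells have lower evenness by counting alone. Drawn down to 80 cells each, the Il17a, Cd8a, Ifng and Gzma classes still lay under the rest in 4 of 4 libraries, with mean differences of -0.0684, -0.168, -0.0321 and -0.0879.

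**Figure D2:**
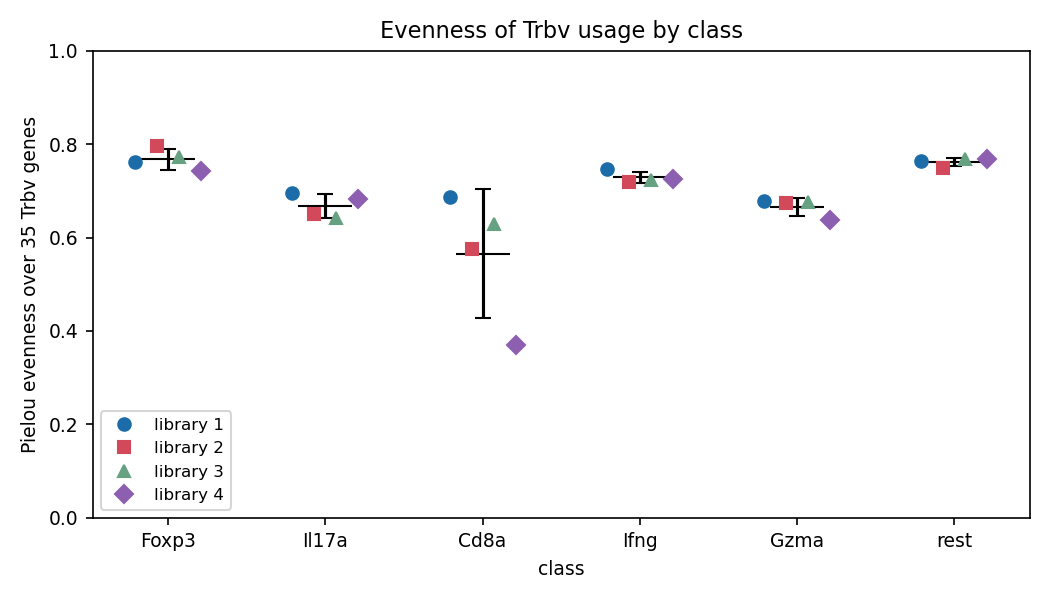
Pielou evenness of Trbv usage (vertical axis, no unit, 0 to 1) in each class; each point is 1 library, horizontal bars are means and error bars are SD over 4 libraries. The Il17a, Cd8a, Ifng and Gzma points lie below all rest points, and the lowest point is library 4 of the Cd8a class at 0.371.

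Trbv19 was high in the Ifng and Gzma classes of all 4 libraries. It led 17.0%, 15.5%, 16.8% and 12.7% of the Ifng class and 22.01%, 19.2%, 25.7% and 13.1% of the Gzma class, above its share in the rest in each library. Its share was 8.12%, 5.26%, 6.16% and 8.92% in the Foxp3 class, below the rest in each library. The Cd8a class had 22.9%, 9.78%, 20.5% and 12.5%, and the Il17a class 10.1%, 17.2%, 1.25% and 9.09%, so the latter overlapped the rest.

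In the count fit, which tested UMIs of each gene against all Trbv UMIs of the class (edgeR quasi-likelihood, Benjamini-Hochberg over all genes), none of these Trbv19 differences passed. In the Gzma class Trbv19 held 13.9% ± 3.87 of Trbv UMIs against 8.23% ± 1.25 in the rest (log2 fold change 0.75 ± 0.29 SE, edgeR adjusted p = 0.116), and in the Ifng class 11.1% ± 1.80 (0.42 ± 0.27, edgeR adjusted p = 0.456). When cells were counted in place of UMIs, the Trbv19 difference passed in the Ifng class (0.47, edgeR adjusted p = 1.3e-05), the Gzma class (0.84, 4.48e-06) and, lower, in the Foxp3 class (-0.70, 0.000801). In the Foxp3 class this count called only lower genes, Trbv19, Trbv4 (-0.95) and Trbv30 (-1.73), and could not test Trbv12-1 and Trbv12-2.

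The count fit took UMI sums of 24 library and class combinations with library as a block, and 22 of the 35 members passed its filter on low counts. All 5 comparisons use the same rest cells, so they are not independent of each other. Within a class the shares add up to 1 whole, so a high share of 1 gene lowers the others. The median log2 fold change of the 22 members was 0.13 in the Foxp3 class, -0.31 in the Il17a class, -0.55 in the Cd8a class, -0.24 in the Ifng class and -0.19 in the Gzma class.

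In the Foxp3 class 2 of 22 members rose and none fell, while 18.0% of all 9573 genes tested rose and 14.3% fell. Both were members of the Trbv12 subgroup. Trbv12-2 held 4.07%, 4.02%, 3.36% and 2.55% of Trbv UMIs in libraries 1 to 4, against 1.95%, 2.09%, 1.70% and 1.39% in the rest. The 4 Foxp3 values all lay above the 4 rest values (log2 fold change 0.98 ± 0.12 SE, edgeR adjusted p = 1.77e-07), and the call held whichever library was left out. Trbv12-1 held 1.08%, 2.68%, 1.24% and 1.22% against 0.534%, 0.637%, 0.308% and 0.960%. Here too the groups did not overlap, but library 2 was far above the others (1.37 ± 0.45, edgeR adjusted p = 0.0302). Without library 2 the adjusted p was 0.300, and without library 3 it was 0.161. In this class B cell markers summed to 38.0 to 45.1 CPM over the libraries, against 8.22 to 11.8 in the rest, with Cd79b the 1 of 6 markers above the rest in 4 of 4 libraries and 3 of the 6 at 0. Epithelial markers summed to 83.2 to 108 against 15.2 to 20.9, with Epcam at 91.8 on average and 2 of 5 at 0. Their part in the result was not tested.

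By cells, Trbv12-2 led 3.14%, 3.59%, 1.12% and 2.33% of the Foxp3 class against 0.946%, 0.717%, 0.728% and 0.329% of the rest, and Trbv12-1 led 1.83%, 2.87%, 2.80% and 1.16% against 0.617%, 0.453%, 0.202% and 0.493%. Every Foxp3 value was above every rest value for both genes. Few cells make up each value. Over all classes and libraries Trbv12-2 led 159 cells and Trbv12-1 led 105, and the Foxp3 class had 258 to 418 leading cells per library. How many clones these were was not tested. In the Foxp3 class 62.4% ± 16.1 (SD, n = 4) of Trbv12-2 UMIs came from cells that Trbv12-2 led, against 26.6% ± 9.06 in the rest. In the rest a further 30.0% ± 12.1 came from cells led by Trbv13-2, its downstream neighbour, against 11.5% ± 3.96 in the Foxp3 class. The coding second exons of Trbv12-1 and Trbv12-2 are 89.1% identical, so how the counting divided reads between them is uncertain.

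**Figure D3:**
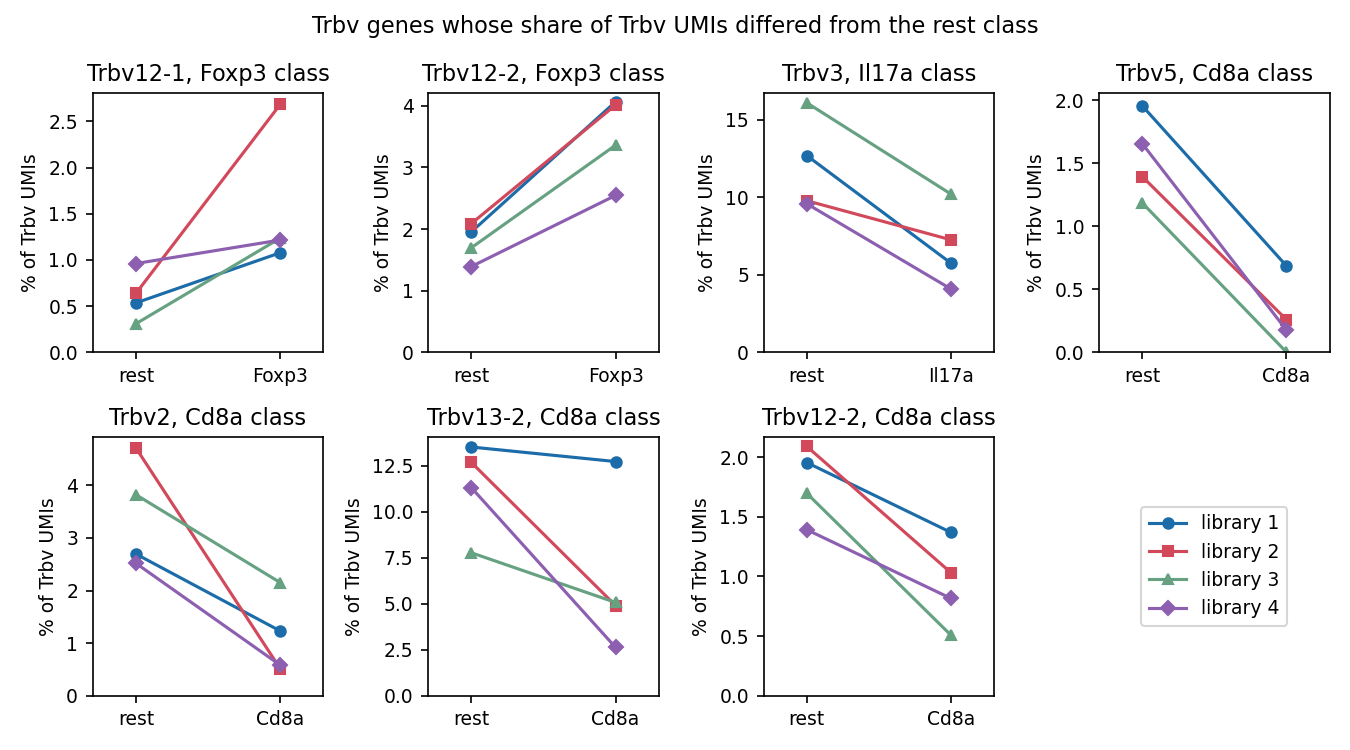
Percent of all Trbv UMIs (vertical axes, each starting at 0) in the rest class and in the named class for the 7 gene and class combinations that passed the edgeR test; each line joins the values of 1 library. All 4 lines run upward for Trbv12-1 and Trbv12-2 in the Foxp3 class and downward in the other 5 panels.

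In the Il17a class 1 of 22 members fell and none rose, beside 11.1% of all genes that fell and 14.8% that rose. Trbv3 held 5.75%, 7.26%, 10.2% and 4.08% of Trbv UMIs against 12.7%, 9.79%, 16.1% and 9.59% in the rest. Each library's Il17a value was below its own rest value, but library 3 of the Il17a class lay above libraries 2 and 4 of the rest. The log2 fold change was -0.90 ± 0.27 SE (edgeR adjusted p = 0.0216), with adjusted p = 0.0871 without library 1, 0.0589 without library 2 and 0.0781 without library 3. With doublets kept, Trbv3 had -0.77 (edgeR adjusted p = 0.0523) and another member, Trbv24, passed in its place. Without library 4, 2 members passed, both lower. With cells that share a Trbv and a Trav gene counted once, its direction reversed (0.45, edgeR adjusted p = 0.259). In this class gamma-delta T cell markers (4 found, 2 of them at 0) summed to 56.5 to 156 CPM over the libraries, against 17.5 to 34.2 in the rest. Most of this was 1 gene, Tcrg-C1, at 86.3 on average against 24.8. Trdc was at 5.57 against 2.35. Stromal or endothelial markers (3 of 4 at 0, which leaves Pecam1 alone) summed to 53.3 to 84.7 against 41.8 to 44.2. Their part in the result was not tested.

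The highest shares in the Il17a class varied widely between libraries. Trbv20 led 1.83%, 0%, 25.0% and 1.52% of its cells, Trbv17 8.22%, 1.64%, 0% and 22.7%, and Trbv16 1.37%, 20.5%, 8.75% and 15.9%. The lead went to Trbv15 in library 1 at 13.7%, Trbv16 in library 2, Trbv20 in library 3 and Trbv17 in library 4. Trbv15 (13.7%, 1.64%, 2.50% and 10.6%) was above its share in the rest in 4 of 4 libraries. By share of Trbv UMIs it was above in 3 of 4 (log2 fold change 0.98 ± 0.50 SE, edgeR adjusted p = 0.172). Trbv2 reached 18.8% in library 3 and 4.55% in library 4. Counts of cells here are small: 80 to 219 per library, and the 25.0% of Trbv20 has an exact 95% interval of 16.0% to 35.9%, as do all intervals here for counting error only.

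In the Cd8a class 4 of 22 members fell and none rose, beside 7.50% of all genes that fell and 6.17% that rose. Trbv5 held 0.684%, 0.258%, 0% and 0.175% of Trbv UMIs against 1.95%, 1.39%, 1.18% and 1.65% in the rest, with no overlap (log2 fold change -2.71 ± 0.45 SE, edgeR adjusted p = 0.000197). Trbv2 held 1.23%, 0.515%, 2.15% and 0.582% against 2.70%, 4.71%, 3.82% and 2.52%, again with no overlap (-1.80 ± 0.56, edgeR adjusted p = 0.0441). Trbv12-2 held 1.37%, 1.03%, 0.506% and 0.815%, close under the lowest rest value of 1.39% (-0.91 ± 0.25, edgeR adjusted p = 0.0107). Trbv13-2 held 12.7%, 4.89%, 5.06% and 2.62% against 13.5%, 12.7%, 7.77% and 11.3%, and its library 1 lay among the rest values (-1.13 ± 0.31, edgeR adjusted p = 0.0232). With doublets kept, Trbv12-2 had -0.40 (edgeR adjusted p = 0.466) and the other 3 passed. Only Trbv5 still passed without library 2, and the same was so without library 4. Trbv2 was also lost without library 1, and Trbv13-2 without library 3. Some of these calls rest on few UMIs. In libraries 1 to 4 the Cd8a class had 5, 3, 0 and 6 UMIs of Trbv5 and 9, 6, 17 and 20 of Trbv2. Of Trbv12-2 it had 10, 12, 4 and 28. Cells led by Trbv12-2 held 20.2% ± 23.4 (SD, n = 4) of these, against 26.6% ± 9.06 in the rest. For Trbv13-2 this was 48.65% ± 16.3 against 73.4% ± 10.7. The Cd8a class had 83 to 288 cells per library. Myeloid markers summed to 156 to 741 CPM in it, against 152 to 165 in the rest. Of the 7 markers, 1 was above the rest in 4 of 4 libraries. Tyrobp averaged 230 against 11.2 and Fcer1g 108 against 8.13, and Cst3, Itgax and Clec9a were also higher on average. Lyz2 (2.88 against 10.5) and Csf1r (0.767 against 1.76) were lower. Gamma-delta T cell markers (4 found, 2 of them at 0) summed to 16.1 to 286 against 17.5 to 34.2. Most of this was again Tcrg-C1, at 98.1 on average, with Trdc at 2.58. Their part in these results was not tested.

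Trbv1 led 6.02%, 0%, 20.5% and 66.7% of the Cd8a class. The value of library 4, 192 of 288 cells, has an exact 95% interval of 60.9% to 72.1%. In library 2 the lead of this class went to Trbv16, which led 39.1% of its cells there and 1.21% to 3.61% in the other libraries. Trbv1 also stood high in library 4 in the Foxp3 class (19.8%, against 5.60% to 7.90% elsewhere), the Ifng class (19.7%, against 2.95% to 6.42%) and the Gzma class (33.6%, against 2.24% to 4.68%). In the Il17a class of library 4 it led 0.758%.

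No member passed in the Ifng class or the Gzma class. At an unadjusted p under 0.05, edgeR gave 1 of 22 members in the Ifng class and 6 of 22 in the Gzma class, and DESeq2 also called 0 in both. Without library 1, or without library 3, 1 member passed in the Ifng class, lower than in the rest. Of all genes, 4.52% rose and 4.51% fell in the Ifng class, and 7.44% rose and 6.32% fell in the Gzma class. With cells in place of UMIs, 16 members could be tested and 4 passed in each of these classes. Besides Trbv19, which rose in both, Trbv2 (-0.52), Trbv13-2 (-0.36) and Trbv5 (-0.31) fell in the Ifng class and Trbv13-1 (-1.93), Trbv4 (-1.28) and Trbv5 (-0.73) fell in the Gzma class. By that count Trbv15 (1.86, edgeR adjusted p = 0.000314) and Trbv17 (1.78, 0.0061) rose in the Il17a class, and Trbv1 rose in the Cd8a class (1.97, 0.00666). The libraries did not all go the same way. By share of cells Trbv15 was above the rest in 4 of 4 libraries (by share of UMIs in 3 of 4), Trbv17 in 2 of 4 (0% to 22.7%) and Trbv1 in 3 of 4 (0% to 66.7%).

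The alpha chain tells whether cells that share a Trbv gene could share more. In 14444 cells, 67.2% of all, both a leading Trbv and a leading Trav gene were found. Trav names are uncertain, because many Trav genes have near-identical copies, and the junction sequences that define a clone are not in these counts. Shares of pairs are percentages of the cells of a class and library in which both genes were found. In library 4 these were 105 of 306 cells in the Cd8a class and 1833 of 2650 in the rest. The most frequent pair in each of the 24 class and library combinations took 3.46% to 26.2% of such cells. The most frequent pairs were 18 different ones. In the same class of another library the same pair never passed 3.19%, and 19 of the 24 were under 2% in every class of the other libraries.

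The Il17a class had the highest value. Trbv20 with Trav8-1 was found in 17 of 65 Il17a cells with both genes in library 3, 26.2%, and in at most 1.92% of any other class there. Trbv15 with Trav7-4 made up 18.9% of such Il17a cells in library 1 (28 of 148), against 3.23% at most in another class of that library. Trbv17 with Trav14d-3-dv8 made up 17.3% of them in library 4 (19 of 110), against at most 1.80%. Because the rest is larger, it still held more cells with each of these pairs: 58 against 28 Il17a cells for Trbv15 with Trav7-4, 35 against 17 for Trbv20 with Trav8-1 and 33 against 19 for Trbv17 with Trav14d-3-dv8.
Library 2 differed: Trbv19 with Trav7-5 made up 12.3% of its Il17a class and 13.7% of its Gzma class. Its Trbv16 with Trav14-1 was found in 9.38% of the Ifng class, 11.75% of the Gzma class, 11.6% of the Cd8a class and 6.78% of the rest, but in 0.633% of the Foxp3 class. Among Foxp3 cells the highest pair was Trbv1 with Trav12-2 in library 4, at 10.9%, and no other class of that library passed 1.60%.

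With each pair counted once per library and class, so that a frequent pair weighs no more than a rare one, evenness had a higher mean in every class: 0.818 ± 0.00764 (SD, n = 4) in the rest, 0.785 ± 0.0133 in the Foxp3 class and 0.688 ± 0.0396 in the Cd8a class. These values are not matched for the number of cells, which was far higher in the rest, so they are given without a test of class against rest. In this count no Trbv gene passed the edgeR test in any class. An unadjusted edgeR p under 0.05 was found for 0, 1, 2, 0 and 1 members in the Foxp3, Il17a, Cd8a, Ifng and Gzma classes. Trbv12-1 and Trbv12-2 had too few cells to be tested in the count by cells, and pairs are fewer than cells. The count of pairs therefore gives no result for their calls.

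Cells led by Trbv1 in library 4 often held no UMI of any Trav gene. A Trav UMI was found in 15.6% of the 192 Trbv1 cells of its Cd8a class (exact 95% interval 10.8% to 21.6%), against 86.5% of the other cells of that class. The shares were 22.1% against 81.2% in the Gzma class, 39.6% against 82.0% in the Ifng class and 45.6% against 84.6% in the rest. In the Foxp3 class they were 88.2% and 88.4%. Over all classes, Trbv1 cells held a Trav UMI in 85.5%, 73.2%, 84.0% and 37.1% of cells in libraries 1 to 4, against 73.5%, 81.5%, 76.3% and 84.0% of the other cells, a wide gap in library 4 and a smaller one in the same direction in library 2. The median depth was 4056 UMIs in Trbv1 cells of library 4 and 4026 in the others.

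In those Trbv1 cells of the Cd8a class, Trac, the alpha constant gene, stood at 328 CPM against 373 in the other Cd8a cells of library 4. Cd8b1, the CD8 beta chain, was at 16.8 against 158, Trgv2, a gamma chain V gene, at 1521 against 577, and Gzmb, granzyme B, at 4816 against 3016. Trdc was at 0 against 2.20, and Trav11, Traj18 and Zbtb16, which mark invariant natural killer T cells, were at 0 in both. These are pooled values of 1 library, with no replicate. Trgv2 was also higher in the Trbv1 cells of the Gzma class (919 against 332) and the Ifng class (652 against 229) there.

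Trbv19 cells had a low Trav share in other libraries. Over all classes 42.6%, 86.6%, 38.0% and 65.6% of Trbv19 cells held a Trav UMI in libraries 1 to 4, against 79.5%, 80.5%, 83.0% and 76.4% of the other cells. Libraries 1 and 3 were low, and library 2 was not. In the Ifng class the values were 35.8%, 83.2%, 37.3% and 61.4%, in the Gzma class 33.3%, 93.5%, 39.8% and 61.4%, and in the rest 51.5%, 88.0%, 35.2% and 65.0%. In the Cd8a class as a whole, 63.5% ± 17.0 (SD, n = 4) of cells held a Trav UMI, with the lowest value, 39.9%, in library 4, where Trbv1 led most cells.

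**Figure D4:**
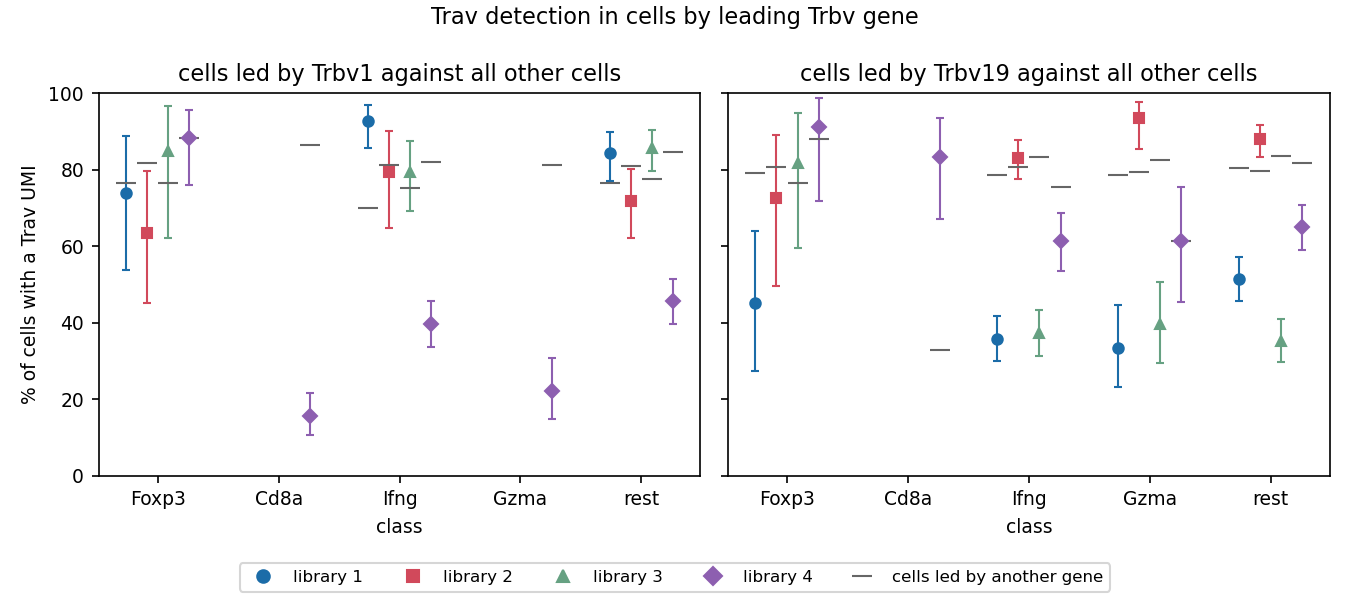
Percent of cells with a Trav UMI (vertical axis, 0 to 100) among cells led by Trbv1 (left) or Trbv19 (right), by library in all classes but Il17a, with exact 95% intervals; grey dashes are the cells of the same class and library led by another gene, and combinations with under 20 leading cells are not drawn. The library 4 points of Trbv1 lie far below their dashes except in the Foxp3 class, and the library 1 and 3 points of Trbv19 lie low in the Ifng, Gzma and rest classes.

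Many cells held a second Trbv gene. Of cells with a leading gene, 34.8% held UMIs of another, and 18.1% had a single UMI of it. At least 2 Trbv genes were found in 50.1% ± 6.25 (SD, n = 4) of Il17a cells, 40.6% ± 2.88 of Foxp3 cells and 35.3% ± 2.47 of the rest. Median depth was also higher in the first 2, at 4915 and 4594 UMIs against 3770, and its part in this difference was not tested.

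For 2 members the second gene went with the order of genes on the chromosome. Trbv13-2 UMIs were found in 23.5% ± 0.445 (SD, n = 4) of cells led by a gene after it and 6.57% ± 1.59 of cells led by a gene before it, higher in 4 of 4 libraries, with Trbv31 left out for its opposite strand. Trbv12-2 UMIs were found in 11.7% ± 1.78 after and 3.23% ± 1.53 before, again in 4 of 4 libraries. These genes were chosen after their values were seen. Of 21 members with a value in all 4 libraries, 17 had a higher mean in cells led by a later gene and 4 in cells led by an earlier one, but only 4 were higher after in 4 of 4 libraries (Trbv3 and Trbv5 are the other two, both under 2%). The nearest downstream genes were highest. Cells led by Trbv14 held Trbv13-2 in 52.6%, 51.9%, 71.9% and 44.0% of cases in libraries 1 to 4, and those led by Trbv13-3 in 48.8%, 46.7%, 59.3% and 46.6%. Trbv16 cells held it in 33.6%, 32.3%, 40.4% and 27.2%, and Trbv13-2 cells held Trbv12-2 in 33.9%, 29.0%, 29.8% and 39.3%. All 4 libraries showed each of these. The fall with distance was not steady. Trbv17 cells held Trbv13-2 in 38.7% ± 9.95 (SD, n = 4) of cases, against 33.4% ± 5.43 for Trbv16 and 31.9% ± 14.4 for Trbv15, both nearer to it.
Trbv13-2 and Trbv13-3 are 91.8% identical in their second exons, while Trbv13-2 is 54.25% identical to Trbv14 and 57.7% to Trbv16. For comparison, a member's identity to its closest other member had a median of 66.2%.

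**Figure D5:**
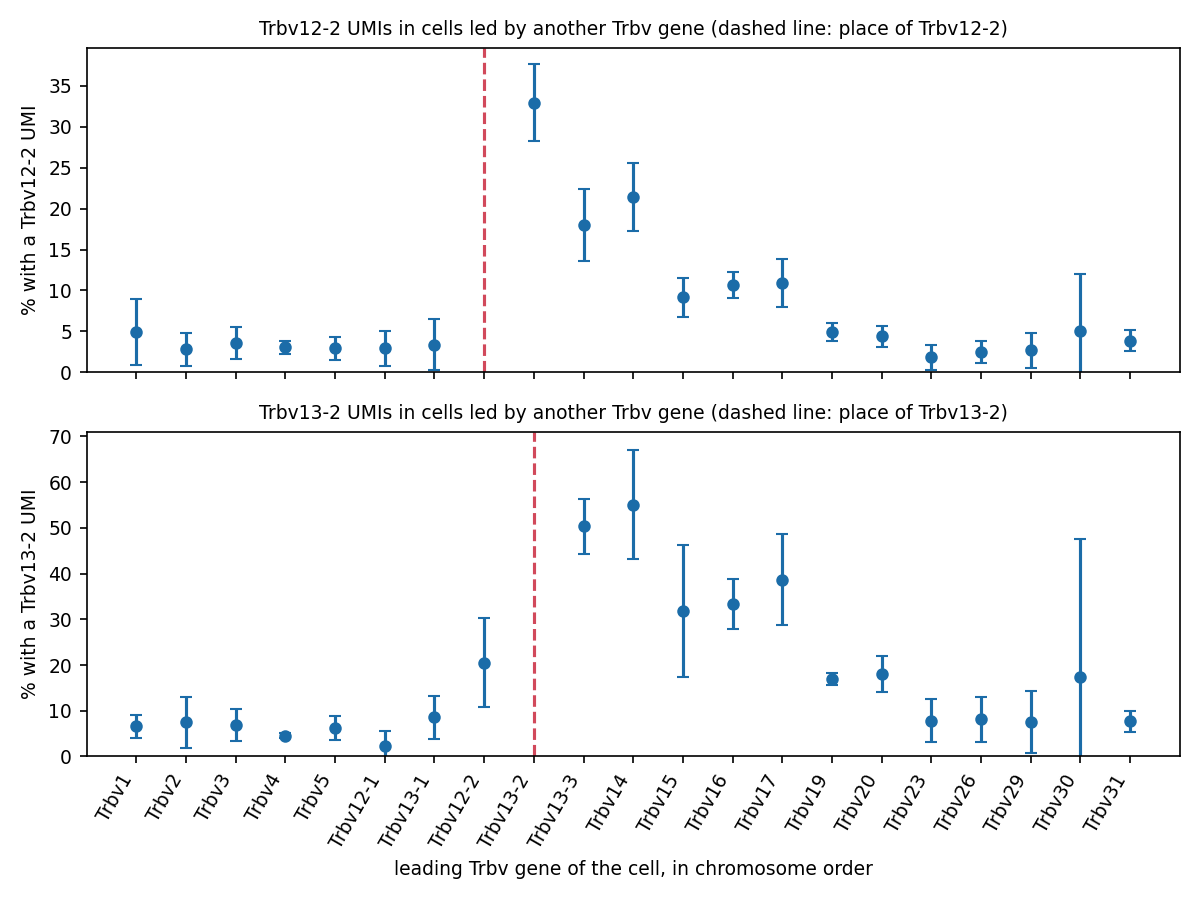
Percent of cells with a UMI of Trbv12-2 (top) or Trbv13-2 (bottom) among cells led by another Trbv gene (horizontal axis, chromosome order); points are means and bars SD over libraries, and the dashed line marks the gene's own place. Values step up just right of the line and are lower, though not in steady order, for genes farther right. Left of the line, cells led by Trbv12-2 also stand above the others for Trbv13-2.

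Other second genes belonged to 1 library. Trbv13-3 cells held Trbv19 in 3.88%, 4.67%, 0.516% and 62.0% of cases. In library 4, 95.7% of the 94 Trbv13-3 cells that also led with Trav7-5 held Trbv19, against 15.9% of the 69 others. Trbv30 cells held Trbv13-2 in 52.3% of cases in library 2 and 0% in libraries 1 and 3.

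Genes of the receptor's constant part and its proximal signalling were taken as a comparison list, of which 14 of 18 could be tested. In the Foxp3 class, where 18.0% of all genes rose and 14.3% fell, 2 of the 14 rose (Cd8b1 by 1.46 and Cd3d, a CD3 chain, by 0.23, log2) and 4 fell: Themis by 1.42, Trat1 by 1.39, the adaptor Lat by 0.49 and the kinase Lck by 0.22 (edgeR). Cells with a Cd8a UMI are kept in the Foxp3 class (Cd8a at 5.47 CPM) but removed from the rest by the order of the gates, and the part of this in the Cd8b1 value was not tested. The Il17a class had 1 higher (the kinase Zap70, 0.16, in 3 of 4 libraries) and 1 lower (Lck, -0.13), and the Ifng class 1 higher (Zap70, 0.18). In the Gzma class 4 rose: Cd3e (0.30), Cd3g (0.29), Zap70 (0.20) and Lat (0.12). In the Cd8a class Cd8b1 (5.23), Cd3e (0.38) and Cd3g (0.35) rose and Trac fell by 0.24, lower in 3 of 4 libraries. The Cd8a gate takes cells with a Cd8a UMI and leaves none in the rest. The part of this in the Cd8b1 rise was not tested. The shares over all genes for these classes are those given above with the Trbv counts. The median of the list was -0.10, 0.03, 0.02, 0.03 and 0.01 in the Foxp3, Il17a, Cd8a, Ifng and Gzma classes, beside -0.01, -0.04, 0.01, 0.00 and 0.00 over all genes. The beta constant genes Trbc1 and Trbc2 passed in no class.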

How the data were processed

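The deposited matrices hold raw UMI counts per gene and cell barcode; they were made with Cell Ranger 3.0.2 on mm10, per the submitters' processing notes. Of 22904 barcodes, 22534 passed limits of 500 detected genes and 1000 UMIs (minimum) and of 10% mitochondrial content (maximum). Scrublet (scanpy 1.11.5, 0.8% expected doublets per 1000 barcodes) marked 1033 as doublets, which were removed. Shares leave out cells with tied leading genes. UMIs were summed per library and class and fitted with edgeR 4.0.16 (quasi-likelihood, filterByExpr, library as a block because every class came from every library, 15 residual degrees of freedom). Trbv genes were scaled to the summed Trbv UMIs, other genes by TMM. Adjusted p-values are Benjamini-Hochberg over 9573 genes, with a threshold of 0.05. The script was tested on simulated data: in the Foxp3 comparison 33 of 50 genes changed 2-fold were recovered among 9458 genes. Intervals are exact 95% binomial.

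The named genes are the 6 with the highest mean share in the rest, those that passed the test in the same direction in 4 of 4 libraries, and per class the 3 with the highest mean share and the one with the widest range over libraries; others were chosen after their values were seen. The members, classes and lists were chosen with earlier results of these data known. Alternatives were DESeq2 1.42.0, TMM for every gene, no low-count filter, cells in place of UMIs, no doublet removal, a stricter mitochondrial limit, other evenness measures and each library left out. Cells with 1 Trbv gene, and each Trav and Trbv pair counted once, were added after seeing the data. Trav and Trbv junction sequences were not used here.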

Additional observations from a re-analysis of the deposited data

Results flagged for a closer look

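Among 42 series of 4 library values, 7 had 1 library set apart by a gap, relative to the whole range, above Dixon's 95% critical value; chance alone flags about 1 series in 20, a rate that does not hold for series named because their range was the widest or for shares that add up to a whole. These were the evenness of the Gzma class in library 4 (0.637), Trbv1 in library 4 of the Gzma class (33.6% of cells) and of the Foxp3 class (19.8%), Trbv16 in library 2 of the Cd8a class (39.1%), Trbv20 in library 3 of the Il17a class (25.0%), Trbv13-2 in library 1 of the Cd8a class (8.43%) and Trbv3 in library 1 of the Foxp3 class (6.55%, the low value). Library 4 was the one set apart in 3 of the 7.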

How the results depend on the processing

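Evenness of the Il17a, Cd8a, Ifng and Gzma classes lay under the rest in 4 of 4 libraries in all 11 settings, while the Foxp3 mean lay under the rest in 2 of 11. Only the setting at 80 cells each drew the classes to the same number of cells. The other settings, with each pair counted once among them, did not. Leaving out cells outside the T lineage could not change evenness, because they held no Trbv UMI. Evenness moved beyond its spread in 19 of 84 values. At 80 cells each it was 0.739 (Foxp3), 0.694 (Ifng), 0.638 (Gzma) and 0.726 (rest). Inverse Simpson evenness was 0.379, 0.264, 0.180, 0.295, 0.222 and 0.362 in the Foxp3, Il17a, Cd8a, Ifng, Gzma and rest classes. By UMI shares the Gzma class had 0.689. In cells with 1 Trbv gene the Il17a, Ifng, Gzma and rest classes had 0.625, 0.707, 0.620 and 0.743, and with each pair counted once 0.710, 0.798, 0.756 and 0.818.

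Numbers of Trbv genes called moved more, in the order Foxp3, Il17a, Cd8a, Ifng, Gzma (2, 1, 4, 0 and 0 as reported). DESeq2 called 1, 2, 4, 0 and 0. TMM for every gene called 2 in the Cd8a class, and no low-count filter 2 in the Il17a class. Cells in place of UMIs gave 3, 3, 4, 4 and 4 (the 3 in the Foxp3 class all lower, and 0 shared with the reported calls in the Foxp3 and Il17a classes), and each pair counted once 0 in every class, where Trbv3 in the Il17a class reversed (0.45). Trbv12-1 and Trbv12-2 could not be tested by cells, and pairs are fewer than cells, so neither count bears on their calls. Leaving out 1 library gave 1 to 2, 0 to 2, 1 to 4, 0 to 1 and 0 to 0. Without the library block, which pairs the classes of a library, 1, 0, 2, 0 and 0 were called. The causes were not tested. The Il17a and Cd8a classes had as few as 80 and 83 cells in a library, which limits their precision.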
